A study of Homo sapiens with 12 samples.

Results

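The colony-stimulating factors and KIT ligand were followed in cultured human endometrial stromal cells treated with inflammatory cytokines. The set holds CSF1 (M-CSF), CSF2 (GM-CSF), CSF3 (G-CSF), IL34 and KITLG (stem cell factor), and every array probe listed with one of these genes alone was taken. Of 54359 probes on the array, 5 met this rule: 1 each for CSF1, CSF3 and IL34, and 2 for KITLG. All 5 were among the 53671 probes tested. CSF2 had no probe listed with it, alone or with other genes, and was not analysed here.

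These proteins are secreted or membrane-bound growth factors that act on cells of the blood lineage. CSF1 and IL34 are unrelated in sequence but share the receptor CSF1R, which sustains monocytes and macrophages. CSF3 acts through CSF3R on neutrophil precursors, and KITLG activates the receptor tyrosine kinase KIT on mast cells, melanocytes, germ cells and haematopoietic progenitors. Stromal cells and fibroblasts are known sources of several of them, and in the endometrium they are studied as signals to uterine macrophages and mast cells.

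T-HESC is a single line of endometrial stromal cells immortalised with telomerase. All cultures were kept 24 h without serum and then treated for 48 h, in 4 groups: TNFα (5 ng/ml) with IL1β (1 ng/ml), TNFα alone (5 ng/ml), IL1β alone (1 ng/ml), and vehicle. Each group had 3 single-colour CodeLink arrays, from passage 13 (replicate 1), passage 28 (replicate 2) and passage 15 (replicate 3) of the line, so the spread is that between passages of 1 line and not between donors. Values below are the deposited intensities, scaled so that each array's median lay near 1 (1.01 on all 12 arrays), and changes are differences of log2 intensity.

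Each array had 52944 to 53507 probes above 0. Vehicle replicate 3, TNFα replicate 3 and IL1β replicate 2 stood apart at the high end of the first principal component (scores 53.0 to 171, against −84.85 to −18.2 for the other 9 arrays), and the changes of the members and the list counts are also given without them below. Vehicle replicate 1 lay at the other end (−84.85, with the next at −33.78). Its score on the second component was the highest (127.1, with the next at 68.26). Without the 3 arrays, the vehicle group holds this array and replicate 2 alone. Of 7 measured stromal markers, collagens COL1A1 and COL1A2 had median intensities of 533 and 380, and the lowest of the 7, MME, had a median of 3.20. Of 8 measured leukocyte markers, 6 had medians below the array median, from 0.108 for PTPRC to 0.496 for CSF1R, while CD68 (4.63) and CD3E (1.85) were above it. The summed level of the 8 measured leukocyte markers was 8.67 to 9.34 with both cytokines, 6.44 to 8.03 with TNFα, 5.56 to 8.15 with IL1β and 5.90 to 9.21 with vehicle. CD68 and CD3E made up most of that sum. The 6 measured epithelial markers summed to 38.5 to 40.1 with both cytokines, 58.6 to 106 with TNFα, 25.7 to 64.1 with IL1β and 86.5 to 121 with vehicle. With both cytokines 1 of the 6, keratin KRT18, was called lower (−1.58 ± 0.26, limma adjusted p = 0.0447, and 0.0829 without the 3 arrays that stood apart). Over all 18106 genes, 11 were called lower there. KRT18 is named here after its values were seen. Most of the epithelial sum came from KRT19 (median 45.8). The 6 measured endothelial markers summed to 17.4 to 18.8 with both cytokines and 18.7 to 21.5 with TNFα. They summed to 15.4 to 18.1 with IL1β and 18.2 to 22.2 with vehicle. Of these, PECAM1 had the highest median, at 11.3. The part of these markers in the results below was not tested. In such bulk RNA, fewer cells of a type and less RNA per cell cannot be told apart.

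No member probe was called in any of the 7 comparisons made (limma, adjusted p under 0.05 over all probes). The share of all probes called was itself small: 0.248% for both cytokines against vehicle, 0.0466% for TNFα against vehicle, 0.00559% for IL1β against vehicle, 0.00186% for both cytokines against TNFα, and 0% for both cytokines against IL1β, for TNFα against IL1β and for the interaction. With no adjustment 12.9%, 7.05% and 9.67% of all probes had p under 0.05 against vehicle with both cytokines, TNFα and IL1β, and 1, 2 and 1 of the 5 member probes did. In the other 4 comparisons, in the order above, 5.08%, 4.37%, 5.04% and 3.59% of all probes and 1, 2, 1 and 1 of the member probes did. The members nevertheless differed from each other in size and pattern, with IL34 showing the widest separation between treated and vehicle arrays.

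**Figure D1:**
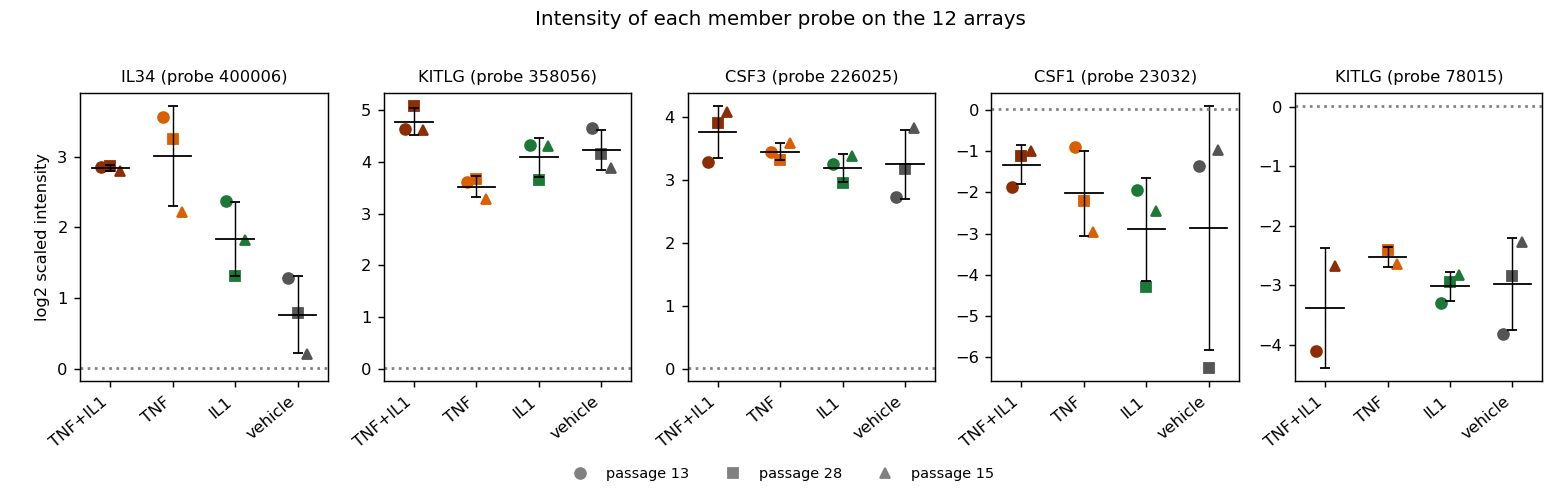
The log2 scaled intensity of each member probe on the 12 arrays is plotted by treatment, with 1 symbol per passage, a bar at the group mean and an error bar of 1 SD (n = 3, or 2 for the second KITLG probe with both cytokines and with TNFα); the dotted line is the mean array median. IL34 lies higher on all treated arrays than on any vehicle array, KITLG probe 358056 is lowest with TNFα, and CSF1 and KITLG probe 78015 lie below the array median throughout.

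IL34 is the second ligand of CSF1R and supports macrophage-lineage cells such as microglia and Langerhans cells. Its probe (400006) read 7.24, 7.31 and 6.93 with both cytokines on replicates 1, 2 and 3. With TNFα it read 11.8, 9.46 and 4.64, with IL1β 5.16, 2.49 and 3.54, and with vehicle 2.45, 1.74 and 1.16. All 9 treated arrays were above all 3 vehicle arrays, although the lowest IL1β array, at 2.49, was close to the highest vehicle array.

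On the log2 scale IL34 averaged 2.84 ± 0.04 with both cytokines, 3.00 ± 0.70 with TNFα, 1.84 ± 0.52 with IL1β and 0.77 ± 0.54 with vehicle (SD, n = 3 each). The arrays with both cytokines were tightly grouped, and those with either cytokine alone were not. This was not particular to IL34. Over all probes the arrays with both cytokines also lay close together (first component scores −29.55 to −21.29). The arrays that stood apart were all in the other groups.

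Against vehicle, IL34 stood 2.07 ± 0.40 higher with both cytokines, a 4.21-fold difference with a 95% interval of 2.27 to 7.79, and this did not pass (SE; limma adjusted p = 0.0862). With TNFα alone it stood 2.24 ± 0.40 higher, or 4.72-fold (2.55 to 8.73), and did not pass (limma adjusted p = 0.136). With IL1β alone it stood 1.07 ± 0.40 higher, or 2.10-fold (1.13 to 3.89; limma adjusted p = 0.455). Across all probes, 7.02%, 3.72% and 3.53% lay above vehicle on every array in these comparisons, which share the same vehicle arrays. Whether IL34 passed in the comparisons that hold TNFα depended on the setting. Among the probes brighter than the median alone, it passed with both cytokines (limma adjusted p = 0.0308) and with TNFα (limma adjusted p = 0.0474). Fewer probes were tested there, and its standard error was smaller. In a fit to only the groups compared, it did not pass (limma adjusted p = 0.1999 with both cytokines and 0.79 with TNFα).

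IL34 was lowest within its group on each of the 3 arrays that stood apart: 4.64 with TNFα, 2.49 with IL1β and 1.16 with vehicle. Without those arrays the differences from vehicle were 1.79 ± 0.23 with both cytokines, 2.35 ± 0.26 with TNFα and 1.05 ± 0.26 with IL1β, and none passed (limma adjusted p = 0.0652, 0.120 and 0.314). The difference between both cytokines and TNFα was then −0.56 ± 0.23, between both cytokines and IL1β 0.74 ± 0.23, and between TNFα and IL1β 1.30 ± 0.26, and the interaction was −1.61 ± 0.35 (limma adjusted p = 0.508 to 0.825).

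Between treatments, IL34 with both cytokines differed from TNFα alone by −0.16 ± 0.40, with a 95% interval of −1.05 to 0.72 (limma adjusted p = 0.998). Both cytokines stood 1.00 ± 0.40 above IL1β alone (limma adjusted p = 1.00), with no overlap of arrays where 8.09% of all probes lay higher in the same way. TNFα stood 1.17 ± 0.40 above IL1β (limma adjusted p = 0.913), and those arrays overlapped. The order of means was therefore TNFα, both cytokines, IL1β and vehicle, and no neighbouring pair in that order passed the test. The interaction, the effect of TNFα in the presence of IL1β less its effect without, was −1.23 ± 0.57 (95% interval −2.49 to 0.02; limma adjusted p = 1.00).

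KITLG encodes stem cell factor, made as a membrane-bound and a soluble form. Its brighter probe (358056) read 24.9, 33.7 and 24.5 with both cytokines. It read 12.2, 12.7 and 9.75 with TNFα, 19.9, 12.6 and 19.7 with IL1β, and 25.1, 17.8 and 14.8 with vehicle. KITLG differed from IL34 in its pattern: its 3 TNFα arrays were below every vehicle array, and its 3 arrays with both cytokines were above every array with either cytokine alone.

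On the log2 scale KITLG probe 358056 averaged 4.78 ± 0.26 with both cytokines, 3.52 ± 0.21 with TNFα, 4.09 ± 0.38 with IL1β and 4.23 ± 0.39 with vehicle (SD, n = 3 each). With TNFα alone it stood at −0.71 ± 0.27 relative to vehicle (95% interval −1.31 to −0.11), which did not pass (limma adjusted p = 0.630), and 6.88% of all probes were lower with TNFα on every array. With both cytokines it stood at 0.54 ± 0.27 relative to vehicle (limma adjusted p = 0.429) and the arrays overlapped. With IL1β alone it stood at −0.14 ± 0.27 (95% interval −0.74 to 0.46; limma adjusted p = 0.905), which gave no detectable difference in either direction.

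The widest KITLG difference between 2 groups was between both cytokines and TNFα alone, 1.26 ± 0.27 or 2.39-fold (95% interval 1.58 to 3.61). It did not pass (limma adjusted p = 0.528), and 6.50% of all probes lay higher on every array in that comparison. Both cytokines stood 0.68 ± 0.27 above IL1β alone (limma adjusted p = 1.00). The interaction was 1.39 ± 0.38 (95% interval 0.55 to 2.24; limma adjusted p = 1.00), of opposite sign to that of IL34. In order, the means ran both cytokines, vehicle, IL1β and TNFα, and neighbours in that order did not pass. Without the 3 arrays that stood apart, KITLG differed by 1.14 ± 0.22 between both cytokines and TNFα and by −0.76 ± 0.24 between TNFα and vehicle (limma adjusted p = 0.391 and 0.377). It then differed by 0.38 ± 0.22 between both cytokines and vehicle and by 0.46 ± 0.22 between both cytokines and IL1β, and the interaction was 1.23 ± 0.32 (limma adjusted p = 0.350, 0.998 and 0.794). The difference between both cytokines and IL1β ran from 0.32, without passage 28, to 0.87 as arrays or passages were left out.

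**Figure D2:**
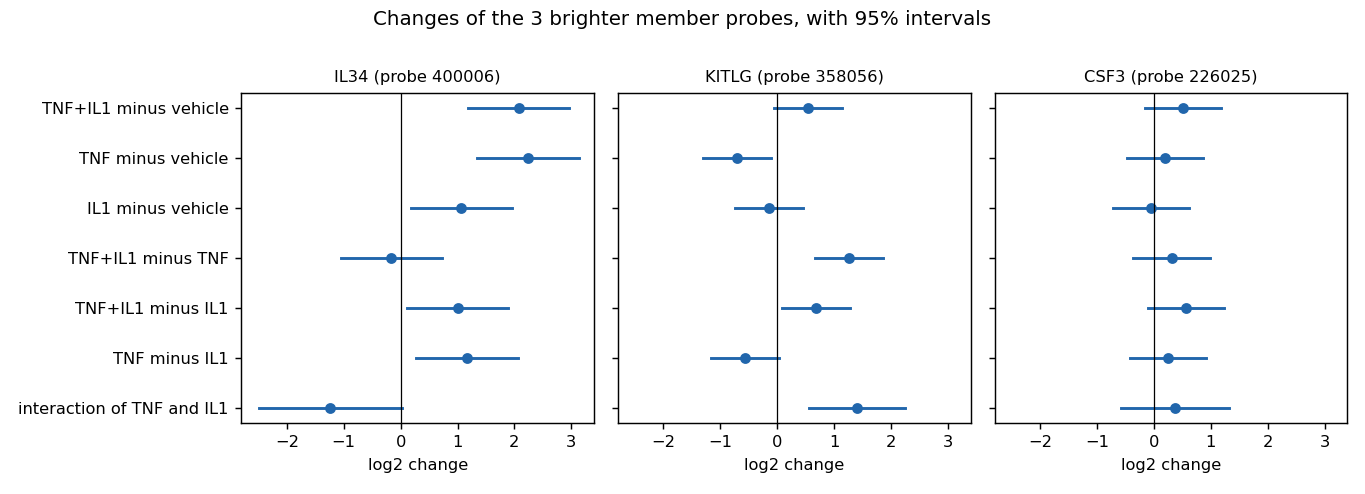
Points give the log2 change of the IL34, KITLG (358056) and CSF3 probes in each comparison from the limma fit to 12 arrays, and lines give 95% intervals. IL34 intervals lie above 0 for all 3 comparisons with vehicle, the KITLG interval lies above 0 for both cytokines against TNFα or IL1β alone and below 0 for TNFα against vehicle, and every CSF3 interval spans 0; these intervals are not adjusted for the number of probes tested.

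Of the members with a probe, KITLG was the one with a start region in the RefSeq promoter table, so its upstream sequence is shown to set beside the pattern above. It lies at chr12:88580472-88580721 (GRCh38.p14, minus strand), the 250 bases before the annotated start. Capitals mark the motif matches found in it: a TATA box and 2 GC boxes.
KITLG: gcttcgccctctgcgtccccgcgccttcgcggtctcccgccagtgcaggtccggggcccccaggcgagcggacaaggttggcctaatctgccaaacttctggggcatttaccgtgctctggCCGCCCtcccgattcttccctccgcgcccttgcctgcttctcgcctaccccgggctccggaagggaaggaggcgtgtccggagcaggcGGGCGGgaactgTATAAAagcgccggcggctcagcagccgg

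Both strands were searched for 5 motifs, and the matches above did not overlap. The TATA box (TATAAA) matched once, at 29 to 24 bases before the start, and 11.4% of 27305 upstream windows of the same length held that motif. The GC box (GGGCGG) matched at 41 to 36 bases on the shown strand and at 129 to 124 bases on the other, and 41.3% of windows held it. The letters of the NF-kB motif (GGGA and CC with 4 bases of any kind between them, in 21.9% of windows), of the AP-1 motif TGANTCA (6.84%) and of the C/EBP motif TTNNGNAA (34.1%) were not in this window.

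CSF3, the growth factor of neutrophil precursors, was measured well above the array median on all 12 arrays. Its probe (226025) read 9.79, 14.9 and 16.9 with both cytokines, 10.8, 9.95 and 11.98 with TNFα, 9.49, 7.74 and 10.4 with IL1β, and 6.62, 9.07 and 14.2 with vehicle. All 4 groups overlapped, and the vehicle arrays alone spanned most of the range.

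CSF3 averaged 3.76 ± 0.41 with both cytokines, 3.45 ± 0.13 with TNFα, 3.19 ± 0.22 with IL1β and 3.25 ± 0.55 with vehicle on the log2 scale (SD, n = 3 each). Its differences from vehicle were 0.51 ± 0.30 with both cytokines (95% interval −0.16 to 1.18), 0.20 ± 0.30 with TNFα (−0.47 to 0.87) and −0.05 ± 0.30 with IL1β (−0.72 to 0.62). None passed (limma adjusted p = 0.509, 0.963 and 0.973). The values depended on vehicle replicates 1 and 3. With both cytokines the change was 0.25 without vehicle replicate 1 and 0.80 without vehicle replicate 3. Without the 3 arrays that stood apart, CSF3 differed from vehicle by 0.80 ± 0.27 with both cytokines, 0.42 ± 0.29 with TNFα and 0.36 ± 0.29 with IL1β, and none passed (limma adjusted p = 0.163, 0.571 and 0.591). Between treatments the CSF3 changes were 0.31 ± 0.30 for both cytokines against TNFα, 0.56 ± 0.30 for both cytokines against IL1β and 0.25 ± 0.30 for TNFα against IL1β, none of which passed (limma adjusted p = 0.944 to 1.00).

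CSF1, the main macrophage growth factor, was read by a probe (23032) that was below the array median on all 12 arrays. It read 0.274, 0.461 and 0.497 with both cytokines, 0.532, 0.217 and 0.129 with TNFα, 0.261, 0.0508 and 0.183 with IL1β, and 0.3895, 0.0130 and 0.509 with vehicle. The groups overlapped, apart from both cytokines against IL1β, where all 3 arrays were higher by small amounts of signal and 8.09% of all probes were higher in the same way.

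The log2 changes of CSF1 ran from −0.03 to 1.56 over the 7 comparisons with standard errors of 1.24 to 1.75, and the lowest limma adjusted p was 0.641. Vehicle replicate 2, at 0.0130, set much of that: the difference between both cytokines and vehicle was 1.53 ± 1.24 with all arrays and −0.16 without it. Settings in which vehicle replicate 2 counted for more moved the difference the other way. Without the 3 arrays that stood apart, the vehicle group holds replicates 1 and 2 alone. CSF1 then differed from vehicle by 2.48 ± 1.30 with both cytokines and 2.25 ± 1.42 with TNFα (limma adjusted p = 0.308 and 0.540). Array quality weights gave vehicle replicate 2 a weight of 1.89, against 0.312 for replicate 1 and 0.174 for replicate 3. The CSF1 differences were then 3.96 ± 0.93 and 3.61 ± 1.03 (limma adjusted p = 0.0519 and 0.250). The size and sign of the CSF1 change thus varied with the setting, and none of these values passed.

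The second KITLG probe (78015) was below the array median on all 12 arrays and at or below 0 on 2 of them, and it did not follow the brighter probe. It read 0.0582, −0.0647 and 0.157 with both cytokines, −0.0328, 0.189 and 0.159 with TNFα, 0.1015, 0.130 and 0.141 with IL1β, and 0.0711, 0.139 and 0.2075 with vehicle. The 2 values below 0 were left out of the fit, which leaves 2 arrays with both cytokines and 2 with TNFα. Its 2 positive values with both cytokines were below both positive values with TNFα, where 14.7% of all probes were lower on every array, and those with TNFα were above all IL1β arrays, where 10.8% were higher. Its changes ran from −0.86 to 0.49 (standard errors 0.47 to 0.74; lowest limma adjusted p = 0.797). The annotation ties this probe to 2 RefSeq transcript records and the brighter one to a different record, which is not a RefSeq transcript. The larger KITLG values above rest on probe 358056 alone, and the Pearson correlation between the 2 probes was −0.64 over the 10 arrays with both values.

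The members differed in how closely they varied together across the arrays. The Pearson correlation of log2 intensity was 0.07 between IL34 and KITLG probe 358056, 0.24 between IL34 and CSF3 and 0.14 between CSF3 and KITLG probe 358056. CSF1 correlated by 0.44 with CSF3, 0.43 with IL34 and 0.30 with KITLG probe 358056 over the same 12 arrays. KITLG probe 78015 correlated by 0.57 with CSF3, −0.18 with IL34 and −0.095 with CSF1 over 10 arrays. These values describe arrays that share treatments and passages.

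Genes with a pattern like that of each member were taken from the genes with values on all 12 arrays, a mean at or above the median of their probes and an SD of at least 0.5 on the log2 scale (2130 genes for IL34 and for KITLG, 2131 for CSF1 and CSF3). For IL34 they were the phospholipase PLA2G4C (Pearson r = 0.967, Spearman rho = 0.958), the butyrophilin BTN2A2 (r = 0.953, rho = 0.951) and the NF-kB subunit RELB (r = 0.951, rho = 0.972), over 12 arrays. Over the 9 arrays left without the 3 that stood apart, r was 0.969, 0.939 and 0.970. PLA2G4C had geometric mean intensities of 23.8 with both cytokines, 28.3 with TNFα, 18.3 with IL1β and 8.74 with vehicle, the same order of groups as IL34.

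RELB read 13.7, 14.6 and 12.8 with both cytokines, 18.1, 14.0 and 10.4 with TNFα, 10.8, 5.04 and 10.2 with IL1β, and 5.95, 5.90 and 2.20 with vehicle. It shared with IL34 the tight group with both cytokines and the low values on TNFα replicate 3, IL1β replicate 2 and vehicle replicate 3. These features were not particular to the 2 genes. The stromal marker COL1A1 read 519 to 537 with both cytokines, and 259, 301 and 318 on those 3 arrays. COL3A1 was not low on them (49.5, 55.5 and 44.1). Like IL34, RELB did not pass against vehicle (1.68 ± 0.42 with both cytokines, limma adjusted p = 0.167).

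For KITLG probe 358056 the 3 genes were the insulin receptor substrate IRS1 (r = 0.874), the arginine-synthesis enzyme ASS1 (r = 0.857) and the cell-surface protein ANTXR1 (r = 0.841), with rho of 0.881, 0.867 and 0.797. Over the 9 arrays left without the 3 that stood apart, r was 0.851, 0.8185 and 0.753. The geometric means of the 3 genes with both cytokines were 6.50, 15.9 and 19.9, against 3.41, 7.68 and 7.53 with TNFα. For CSF3 the closest were PLB1 (r = 0.753), LIAT1 (r = 0.743) and SLC8A3 (r = 0.735). For CSF1 they were CDYL (r = 0.714), HERC5 (r = 0.663) and CPM (r = 0.622), whose rho of 0.420 to 0.532 was lower, with 1 very low CSF1 array in the vehicle group. Over the same 9 arrays r was 0.806, 0.762 and 0.760 for the CSF3 genes. It was 0.944, 0.873 and 0.890 for the CSF1 genes, and the very low CSF1 array is among those 9.

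**Figure D3:**
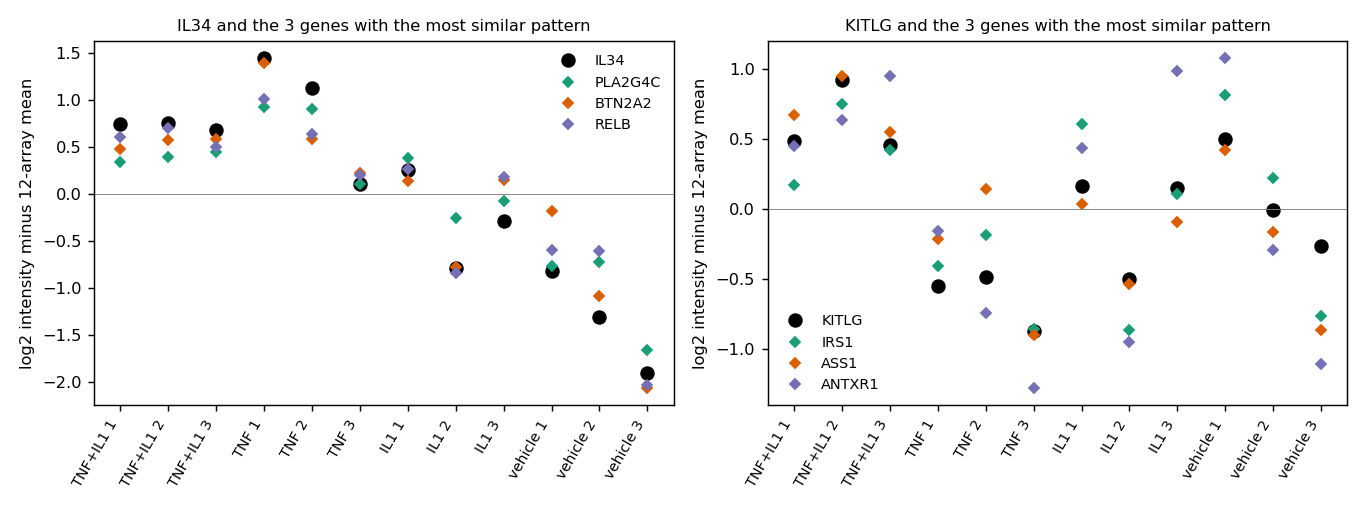
Log2 intensity minus the mean of the 12 arrays is plotted for each array, at left for IL34 with PLA2G4C, BTN2A2 and RELB and at right for KITLG probe 358056 with IRS1, ASS1 and ANTXR1, genes chosen for their likeness. Each gene of the IL34 set is highest on TNFα replicate 1 and lowest on vehicle replicate 3. Each gene of the KITLG set is above its mean on the 3 arrays with both cytokines. Each is below it on TNFα replicate 3, IL1β replicate 2 and vehicle replicate 3, the arrays that stood apart.

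The receptors of these ligands showed no called change. Of 7 receptors and co-receptors measured, 0 passed in any of the 7 comparisons. CSF1R, the shared receptor of CSF1 and IL34, read 0.439 to 0.473 with both cytokines, 0.131 to 0.561 with TNFα, 0.520 to 1.598 with IL1β and 0.0907 to 0.948 with vehicle. KIT, the receptor of KITLG, read 5.70 to 7.56 with both cytokines, 7.65 to 8.55 with TNFα, 5.69 to 6.09 with IL1β and 5.65 to 9.73 with vehicle. Its change was −0.24 ± 0.23 with both cytokines and −0.43 ± 0.23 with IL1β (limma adjusted p = 0.7025 and 0.571).

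Against vehicle with both cytokines, CSF3R stood at 0.42 ± 0.37, CSF2RA at 0.28 ± 0.18 and CSF2RB, the beta chain shared by the GM-CSF, IL3 and IL5 receptors, at −0.07 ± 0.62 (limma adjusted p = 0.537 to 0.979). CSF2RB varied widely within groups, from 2.27 to 10.6 among the vehicle arrays. PTPRZ1, a further receptor reported for IL34, stood at 1.12 ± 0.30 on a probe that never exceeded 0.2105 (limma adjusted p = 0.184), and the proteoglycan SDC1, a co-receptor, at −0.69 ± 0.51 (limma adjusted p = 0.601). The median of the 7 was 0.25, against −0.10 over all 18106 genes. With the 3 arrays that stood apart left out, 0 of the 7 passed in any comparison, and the median with both cytokines was −0.09, with CSF1R at −0.80 ± 0.46, CSF2RB at −0.69 ± 0.48, CSF3R at 0.72 ± 0.38 and SDC1 at −1.22 ± 0.18 (limma adjusted p = 0.0745 to 0.430).

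Genes around the pathway were counted by list in the same comparison. Of 9 other measured haematopoietic growth factors and 18 genes that signal downstream of the receptors, 0 passed (medians −0.02 and 0.06). In the first list IL7, a lymphocyte growth factor, came nearest: it read 1.37, 1.78 and 1.45 with both cytokines, against 0.234, 0.0970 and 0.593 with vehicle, a change of 2.68 ± 0.54 that did not pass (limma adjusted p = 0.103). In the second it was the phosphatase INPP5D (−0.68 ± 0.18, limma adjusted p = 0.184).

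Of 8 RNA-binding proteins that regulate the stability of cytokine mRNAs, 1 passed, as higher: the ribonuclease ZC3H12A. The list median was −0.15. Over all 18106 genes, 52 passed as higher and 11 as lower in this comparison. ZC3H12A read 19.5, 24.6 and 24.3 with both cytokines, against 5.72, 6.22 and 5.34 with vehicle (1.98 ± 0.26, limma adjusted p = 0.0177). All its arrays with both cytokines were above all vehicle arrays, where 7.02% of all probes lay higher in the same way. With the passage as a block ZC3H12A did not pass (limma adjusted p = 0.0520), nor without replicate 2 or 3 of the arrays with both cytokines (0.0963 and 0.0896).

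Of 15 NF-kB, C/EBP and AP-1 factors 1 passed, as higher: the C/EBP family member CEBPD. The list median was 0.50, and 52 of all 18106 genes passed as higher. CEBPD read 27.8, 25.9 and 25.9 with both cytokines, 9.55, 10.3 and 5.45 with TNFα, 20.2, 12.2 and 10.4 with IL1β, and 4.97, 5.12 and 4.28 with vehicle. That is a change of 2.47 ± 0.30 with both cytokines (limma adjusted p = 0.0102), and neither cytokine alone passed (limma adjusted p = 0.640 with TNFα and 0.2885 with IL1β). Without the 3 arrays that stood apart the change of CEBPD with both cytokines was 2.39 ± 0.27 and did not pass (limma adjusted p = 0.0532), nor did it without replicate 2 of the arrays with both cytokines (0.0590). For TNFα or IL1β alone against vehicle, 0 genes of these 5 lists passed. Without the 3 arrays that stood apart, ZC3H12A alone passed among the 5 lists with both cytokines (limma adjusted p = 0.0479). The list medians were then 0.18 for the other growth factors, −0.01 for the signalling genes, −0.53 for the RNA-binding proteins and 0.10 for the NF-kB, C/EBP and AP-1 factors.

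**Figure D4:**
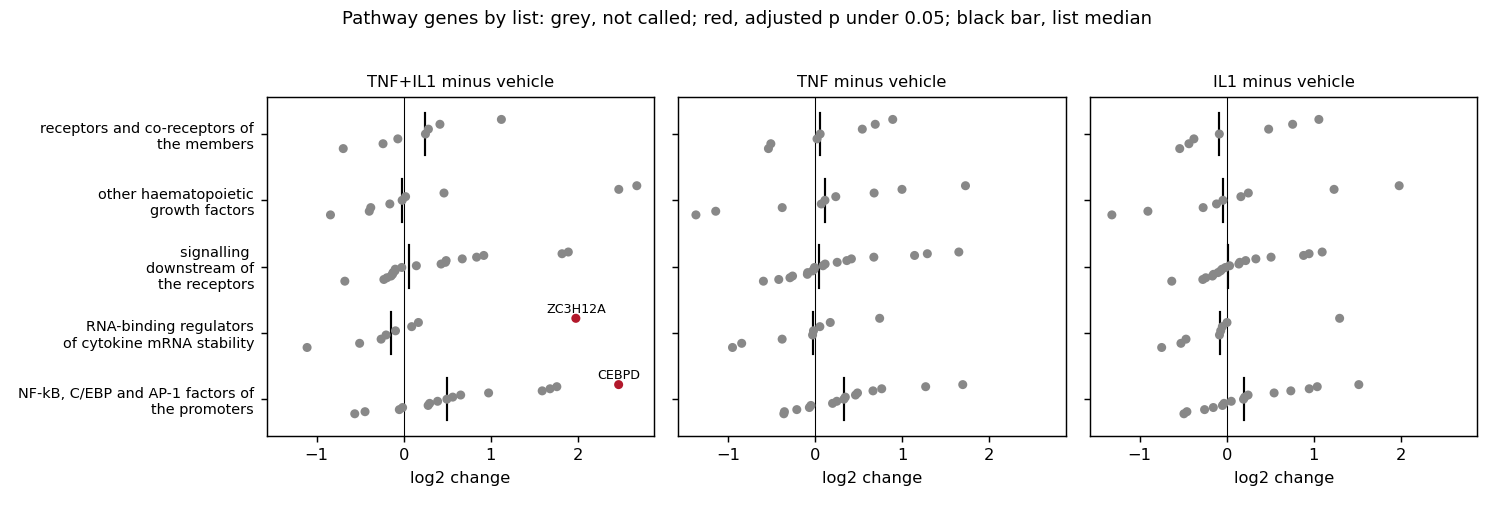
Each point is the log2 change of 1 gene of a pathway list against vehicle, with both cytokines, TNFα alone or IL1β alone, and black bars are list medians. ZC3H12A and CEBPD, in red, passed with both cytokines, and no other gene of the 5 lists passed in these 3 comparisons.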

How the data were processed

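Biotinylated cRNA from total RNA was read on single-colour CodeLink arrays, and the deposited values are intensities that the authors had scaled before deposit; from the values, each array's median lies near 1. For the image analysis, background correction and scaling method, nothing is stated in the labels. Gene names came from GEO's platform annotation, updated through RefSeq gene IDs: 23472 probes had 1 gene, 905 several and 29982 none.

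Entries coded as missing (0.716%) and values at or below 0 (1.1%) were treated as missing, and log2 was taken. Probes with at least 2 values in each of the 4 groups were tested in 1 fit to all 12 arrays (limma 3.58.1, R 4.3.3), with Benjamini-Hochberg adjustment over 53671 probes. A call is an adjusted p under 0.05, and intervals are 95% from the moderated fit. The fit was tested on simulated data. With 3 against 3, exact permutation has a smallest p of 0.1 (two-sided), so none is given. The 3 arrays per group and 8 residual degrees of freedom limit the precision.

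The labels give same-numbered replicates one passage in every group. Residuals of same-passage arrays correlated by 0.00712 on average (18 pairs, −0.196 to 0.31), against −0.00291 (36 pairs, −0.277 to 0.291) for different passages.

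The members and gene lists were chosen with earlier results of these data known. Every member probe and receptor is given. From each other list, up to 4 called genes are named, or otherwise the gene with the lowest p with both cytokines, and the 3 genes most like each member by Pearson r. A gene outside the members is represented by its brightest probe. Upstream sequence came from RefSeq (GRCh38.p14).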

Additional observations from a re-analysis of the deposited data

How the results depend on the processing

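IL34 was the one member whose call depended on the processing. The count of members called against vehicle with both cytokines was 0 and became 1 without dim probes (adjusted p = 0.0308), with trend and robust variance settings (0.0348) and with array quality weights (0.0106). With TNFα alone it became 1 without dim probes (0.0474) and with array weights (0.0320). The array weights of vehicle replicates 1, 2 and 3 were 0.312, 1.89 and 0.174, so replicate 2 carried most of the vehicle group. Under them 1677 of all probes were called with both cytokines, against 133 in the main fit. Over all alternatives the limma adjusted p of IL34 ran from 0.0106 to 0.403 with both cytokines. With TNFα it ran from 0.0320 to 0.79. Without dim probes fewer probes were tested, and the standard error of IL34 with both cytokines was 0.3762, against 0.3996 in the main fit. The cause of the change in call was not tested under any of these settings. With each array or passage left out, every count of members called stayed at 0 (lowest 0, highest 0). IL34 kept its direction in 172 of 174 alternative values and KITLG probe 358056 in 169 of 174. With the passage as a replicate block, IL34 with both cytokines was 2.07 ± 0.32 (adjusted p = 0.0742), and the block changed no call of a member.

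Reversed values were all uncalled, and their cause was not tested. Under quantile normalization, which moved the median of all probes to −0.000441 against −0.127 for both cytokines and to −0.000689 against −0.125 for IL1β, KITLG probe 78015 was 0.067 with both cytokines. With IL1β, CSF1 was 0.056, KITLG probe 78015 0.41, CSF3 0.13 and KITLG probe 358056 0.088. With array weights the IL1β changes were 2.66 for CSF1, 0.12 for CSF3 and 0.019 for KITLG probe 358056, and the CSF1 interaction was −2.31. With an offset of 0.104 before the log, KITLG probe 78015 was −0.42 for TNFα against vehicle and −0.37 for TNFα against IL1β. Without the 3 arrays that stood apart, a setting added once the data had been seen, the IL1β changes were 1.62 for CSF1, 0.27 for KITLG probe 78015 and 0.36 for CSF3, and the CSF1 interaction was −1.39.

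With arrays or passages left out, changes that crossed 0 were, for both cytokines against vehicle, CSF1 (−0.27 to 2.56) and KITLG probe 78015 (−1.13 to 0.31). For TNFα they were CSF1 (−0.86 to 2.25) and CSF3 (−0.060 to 0.49). For IL1β they were CSF1 (−1.73 to 0.92), KITLG probe 78015 (−0.46 to 0.31), CSF3 (−0.34 to 0.24) and KITLG probe 358056 (−0.41 to 0.080). IL34 for both cytokines against TNFα ran from −0.56 to 0.11, and KITLG probe 78015 for both cytokines against IL1β from −1.08 to 0.35. Interactions of CSF1 (−0.63 to 2.42) and KITLG probe 78015 (−1.91 to 0.18) also crossed 0.

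Over all probes, calls with both cytokines numbered 133, and 0 (without passage 13) to 1677 (array weights) over 25 alternatives, with 87 under the block. For TNFα they numbered 25 (0 to 57), for IL1β 3 (0 to 10), for both cytokines against TNFα 1 (0 to 56), and for the other comparisons 0 (0 to 50, 0 to 4 and 0 to 2). Of 25 alternatives added after seeing the data, CEBPD passed in 20, ZC3H12A in 18 and KRT18 in 9, each with the same direction in all 25.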
